A study of Homo sapiens with 6 samples.

Results

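The cytosolic ribosomal protein genes encode the protein part of the ribosome that translates nuclear mRNAs. They were taken as every row of the count table whose NCBI Gene number belongs to a protein-coding gene named RPL or RPS with a number, or RPLP0 to RPLP2, RPSA and the paralogues whose names end in L. Pseudogenes, the RPS6K kinases and the Y-linked copies of *RPS4* were left out. The rule gave 86 of the 29806 genes in the table, 53 of the large subunit and 33 of the small subunit. The study compared LNCaP parental cells, a human prostate cancer line that responds to androgen and is wild type for PACT, with LNCaP cells in which PACT (gene *PRKRA*) was knocked out by CRISPR. Each group had 3 dishes, plated at 1000000 cells and grown in RPMI-1640 with 10% fetal bovine serum, and RNA was taken 48 h later at about 80% confluency. PolyA RNA was sequenced, and the deposited values are reads counted per gene. The PACT KO line is a single clone, so the spread between dishes does not measure the spread between clones, and an effect of PACT and a trait of that clone cannot be told apart.

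A ribosome is built from a small subunit, which reads the mRNA, and a large subunit, which joins amino acids, and most ribosomal proteins are needed in equal numbers. Their mRNAs are among the most abundant of dividing cells. Many of them begin with a C followed by a run of pyrimidines, the 5′ terminal oligopyrimidine (TOP) motif, through which mTOR and the RNA-binding protein LARP1 set their translation and stability. Ribosomal proteins made in excess of rRNA are degraded, and free RPL5 and RPL11 bind the ubiquitin ligase MDM2.

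The first bases of these mRNAs are shown for the members on which the results below turn, namely the largest falls, the paralogue pairs that shifted against each other, and members near no change. Each sequence runs from 10 bases before to 20 bases after the annotated start, read 5′ to 3′ on the strand of the gene, from the RefSeq promoter table of GRCh38.p14. Capitals mark the unbroken pyrimidines that begin with a C at the start itself, and a sequence with no capitals has no C there.
*RPL9* (chr4:39458903-39458932, minus strand): taatgacgacagacgttctttctttgctgc
*RPL22L1* (chr3:170870176-170870205, minus strand): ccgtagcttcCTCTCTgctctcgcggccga
*RPL22* (chr1:6199576-6199605, minus strand): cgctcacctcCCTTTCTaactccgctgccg
*RPL21* (chr13:27251548-27251577, plus strand): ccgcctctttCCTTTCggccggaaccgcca
*RPLP2* (chr11:809957-809986, plus strand): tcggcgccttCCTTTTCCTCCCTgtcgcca
*RPS21* (chr20:62387093-62387122, plus strand): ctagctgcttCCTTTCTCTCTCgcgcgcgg
*RPS27* (chr1:153990752-153990781, plus strand): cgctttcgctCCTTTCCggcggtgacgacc
*RPS27L* (chr15:63157458-63157487, minus strand): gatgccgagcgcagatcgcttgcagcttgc
*RPL39* (chrX:119791611-119791640, minus strand): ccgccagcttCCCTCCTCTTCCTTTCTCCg
*RPL3* (chr22:39319604-39319633, minus strand): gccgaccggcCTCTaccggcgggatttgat

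The libraries held 19930060 to 24940838 reads on genes. *PRKRA*, the targeted gene, had 882, 809 and 866 reads in the LNCaP parental dishes against 291, 331 and 243 in the knockout, a log2 fold change of -1.57 ± 0.07 (SE, n = 3 and 3, FDR 8.83e-21 in edgeR's quasi-likelihood test). The knockout libraries thus kept *PRKRA* reads, and the count does not show whether they came from intact mRNA. Of 9 luminal prostate markers all were detected. *KLK3*, which encodes PSA, fell from 63.8 ± 2.70 to 11.3 ± 0.568 CPM (SD, n = 3), and *KLK2* by 0.84 on the log2 scale, while *FOLH1* rose by 0.15. Of 7 markers of fibroblasts, leukocytes and endothelium, 5 had at most 6 reads in any library (*DCN*, *LUM*, *PTPRC*, *CD3E* and *PECAM1*), and the other two moved in opposite directions, *COL1A1* by 0.52 and *VWF* by -0.61.

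Ribosomal protein mRNAs were slightly and broadly lower in PACT KO cells. They took 8.27%, 8.13% and 8.05% of the gene reads in LNCaP parental replicates 1, 2 and 3 and 7.65%, 7.82% and 7.63% in PACT KO replicates 1, 2 and 3. All 3 PACT KO libraries were below all 3 LNCaP parental libraries, with means of 8.15 ± 0.111% and 7.70 ± 0.105% (SD, n = 3), a difference of -0.452 percentage points. A smaller share of reads can come from less of these mRNAs per cell or from more of other RNA, which cannot be told apart in these libraries. The median member, taken as log2 CPM (counts per 1000000 reads after scaling of the libraries) minus the mean of the LNCaP parental libraries, was at 0.03, -0.0036 and -0.02 in the 3 LNCaP parental libraries. In PACT KO replicates 1, 2 and 3 it was at -0.12, -0.09 and -0.16.

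**Figure D1:**
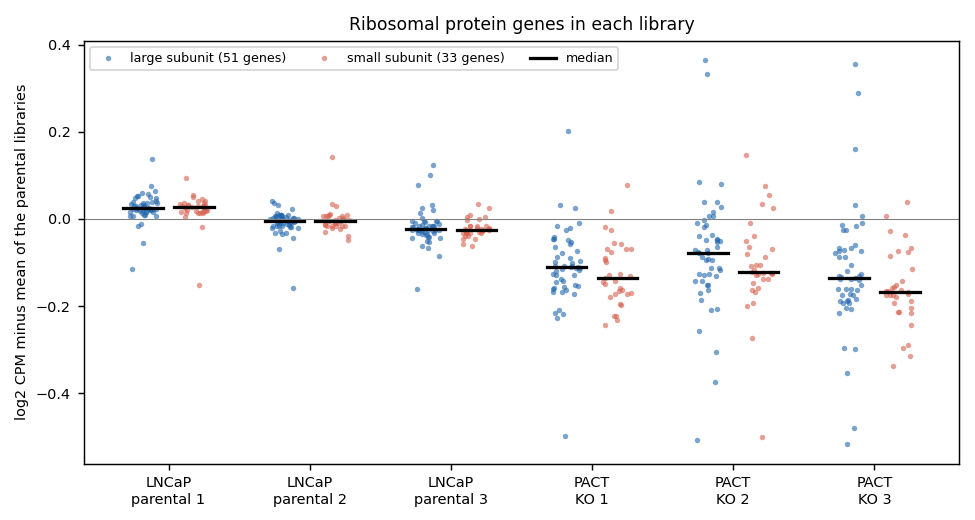
Each point is one ribosomal protein gene in one library, as log2 CPM minus its mean over the LNCaP parental libraries (y axis), for the 51 large subunit and 33 small subunit genes tested, and black bars are medians. The medians of both subunits lie below 0 in all 3 PACT KO libraries, from -0.08 to -0.17.

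Of the 86 genes, 84 had enough reads to be tested. *RPL39L* had 0 reads in all 6 libraries, and *RPL3L*, the heart and skeletal muscle form of *RPL3*, had 1, 0 and 0 reads in LNCaP parental and 0, 3 and 0 in PACT KO cells, which allows no fold change. At an FDR under 0.01, 56 of 84 (66.7%) were lower in PACT KO cells, against 18.8% of all 14462 genes tested. In the other direction 0 members were called, against 15.3% of all genes. DESeq2 also called 0 members higher, and 3 were higher at an unadjusted p under 0.05 in edgeR. No member reached 1.5-fold, whatever its p, whereas 2.65% of all genes fell and 3.07% rose past that fold at this FDR. The groups of 59 members did not overlap and were lower in PACT KO cells (all genes, 27.2%), those of *RPL7* and *RPL10L* were separate and higher (all genes, 25.1%), and 23 members overlapped.

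The size of the change was small. The median log2 fold change of the members was -0.11, against 4.4e-04 over all genes tested, with quartiles of -0.16 and -0.07 and a range from -0.45 to 0.28. For 79 of the 84 members the fold change was under 1.2. The exceptions were *RPL9*, *RPL17*, *RPSA2*, *RPL22L1* and *RPL10L*. The count rested in part on how libraries were put on one scale. With limma-voom and cyclic loess, which removes differences that follow abundance, 33 members were lower and 7 higher (all genes, 16.9% and 16.3%), and the median was -0.05.

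**Figure D2:**
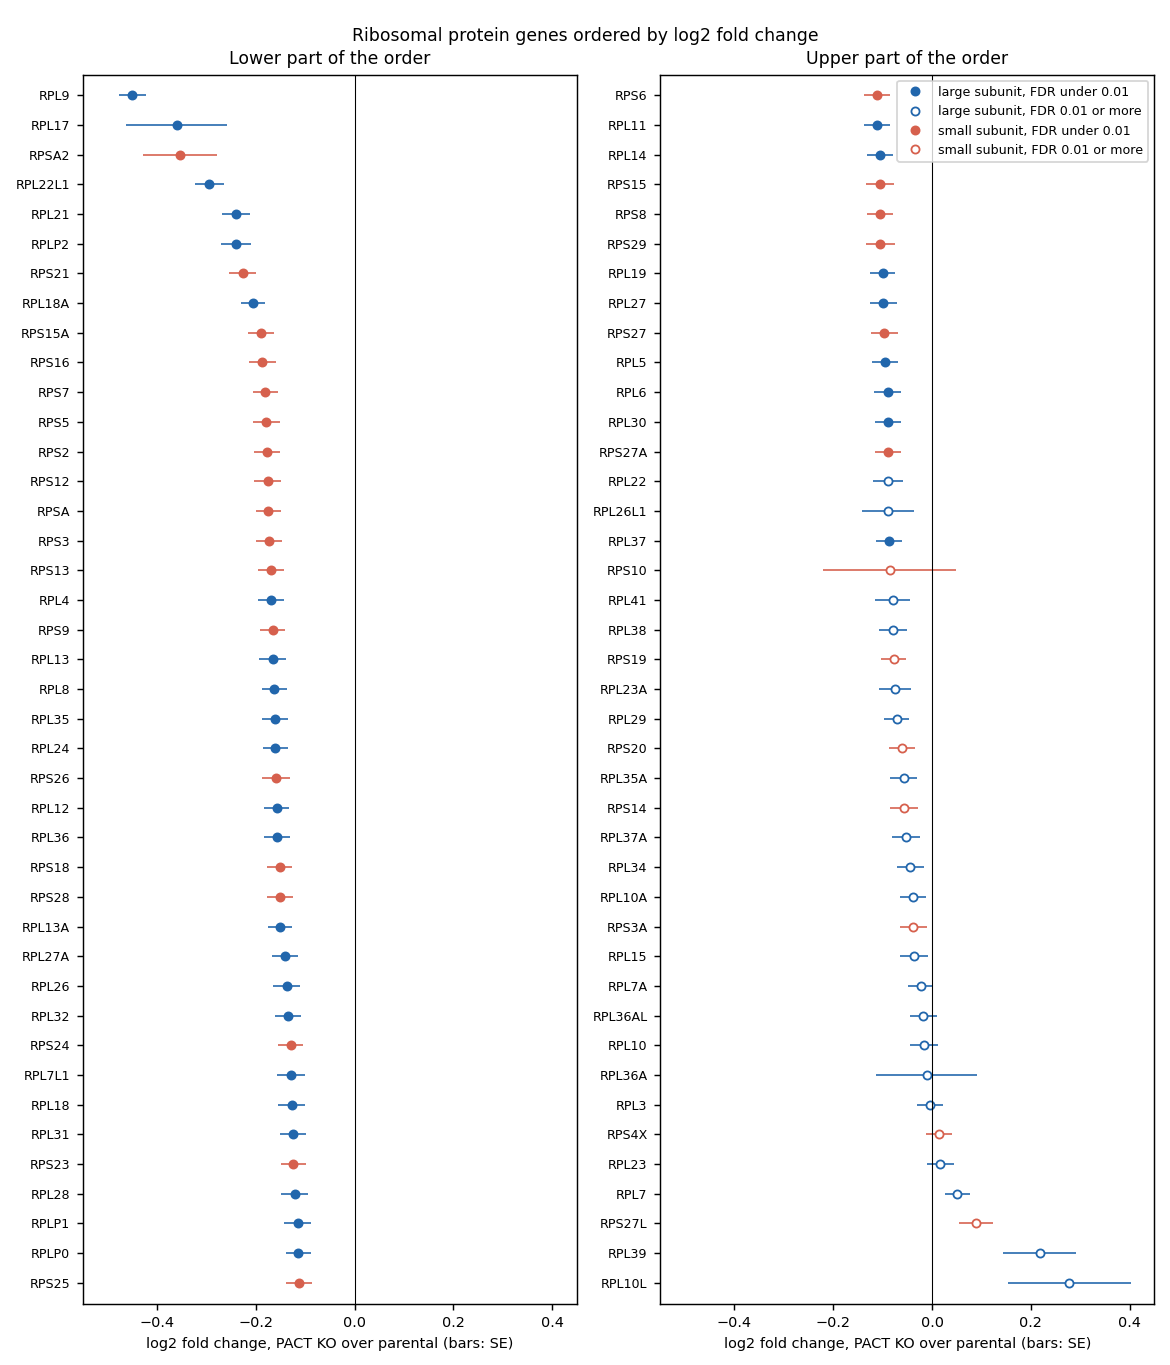
Of the 84 ribosomal protein genes tested, 82 are ordered by log2 fold change, PACT KO over LNCaP parental (x axis, with bars of 1 SE from edgeR, n = 3 and 3), in 2 columns, with large subunit genes in blue, small subunit genes in red and filled points at an FDR under 0.01. All 55 filled points lie below 0, *RPL9* is lowest at -0.45, and *RPL39* and *RPL10L* at the other end have wide bars.

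In these libraries more abundant genes were called more often in both directions, and their medians lay below that of all genes. Among genes that are not members, those with a mean of at least 100 CPM were lower in 36.7% and higher in 18.4% of 2343 cases, with a median log2 fold change of -0.04. At 500 CPM or more the shares were 45.2% and 24.1% of 166 genes, with a median of -0.06. Of the 77 members of at least 100 CPM, 54 (70.1%) were lower, with a median of -0.11. Over the 84 members tested, the Spearman rank correlation of log2 fold change with LNCaP parental CPM was -0.0145. How much of the members' change follows abundance was not tested.

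Both subunits were lower, the small subunit slightly more so. Of 51 large subunit genes tested, 31 (60.8%) were lower, with a median log2 fold change of -0.10, and of 33 small subunit genes 25 (75.8%), with a median of -0.13. Of all genes tested 18.8% were lower, and of genes outside the members with at least 100 CPM 36.7%. The medians differed by 0.03. In the single libraries the large subunit median exceeded the small subunit median by 0.03, 0.04 and 0.03 in PACT KO replicates 1, 2 and 3. In LNCaP parental cells the medians differed by at most 0.0020 in either direction. Each gene was set against its own LNCaP parental mean, so the LNCaP parental values centre on no difference by construction, and only their spread is informative. Large subunit genes held 5.22 ± 0.0685% of gene reads in LNCaP parental and 4.96 ± 0.0705% in PACT KO cells, and small subunit genes 2.93 ± 0.0422% and 2.74 ± 0.0378% (SD, n = 3). The ratio of large to small subunit reads was 1.778, 1.785 and 1.782 in LNCaP parental and 1.794, 1.812 and 1.819 in PACT KO replicates 1 to 3, so the groups did not overlap. The difference between medians was 0.02 without LNCaP parental replicate 3 and 0.05 without LNCaP parental replicate 1. It is a description over genes that share libraries and carries no test.

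*RPL9*, a large subunit protein at the base of the stalk, fell most. Its level was 927, 917 and 901 CPM in LNCaP parental replicates 1 to 3 and 648, 706 and 656 CPM in PACT KO replicates 1 to 3. The groups lay far apart, and the level fell by 26.8% (log2 fold change -0.45 ± 0.03 SE, FDR 3.58e-16). *RPL9* lies at chr4:39454124-39458922 (GRCh38.p14), and neither of the next genes on each side was called: *LIAS* changed by -0.09 (FDR 0.273), and *KLB*, at 1.204 CPM in LNCaP parental and 0.749 CPM in PACT KO cells, by -0.71 (FDR 0.0364). Further out, *UGDH* fell by 0.17 (FDR 6.89e-05) on the log2 scale, *KLHL5* on the other side rose by 0.32 (FDR 5.20e-08), and *UGDH-AS1* changed by 0.30 (FDR 0.0108, not called). The other members on chromosome 4, *RPL34* and *RPS3A*, both changed by -0.04 and were not called. These neighbours were looked at after the value of *RPL9* was known.

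*RPL22L1*, a paralogue that can take the place of *RPL22* in the large subunit, was the next of the well-covered members. It had 321, 306 and 321 CPM in LNCaP parental and 270, 255 and 247 CPM in PACT KO cells, so that the highest PACT KO library stayed below the lowest LNCaP parental library. It fell by 18.4% (log2 fold change -0.29 ± 0.03, FDR 1.39e-10).

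*RPL21* stood at 268, 260.6 and 271 CPM in LNCaP parental and 229, 231 and 217 CPM in PACT KO cells (log2 fold change -0.24, FDR 7.35e-09). *RPLP2*, a phosphoprotein of the stalk that recruits elongation factors, fell from 741, 715 and 688 CPM to 636, 597 and 582 CPM (-0.24, FDR 1.49e-08). Neither gene's groups overlapped. In the small subunit, *RPS21* gave 488, 485 and 474 CPM against 421, 420 and 394 CPM (-0.23, FDR 1.01e-08), and its groups were also separate.

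**Figure D3:**
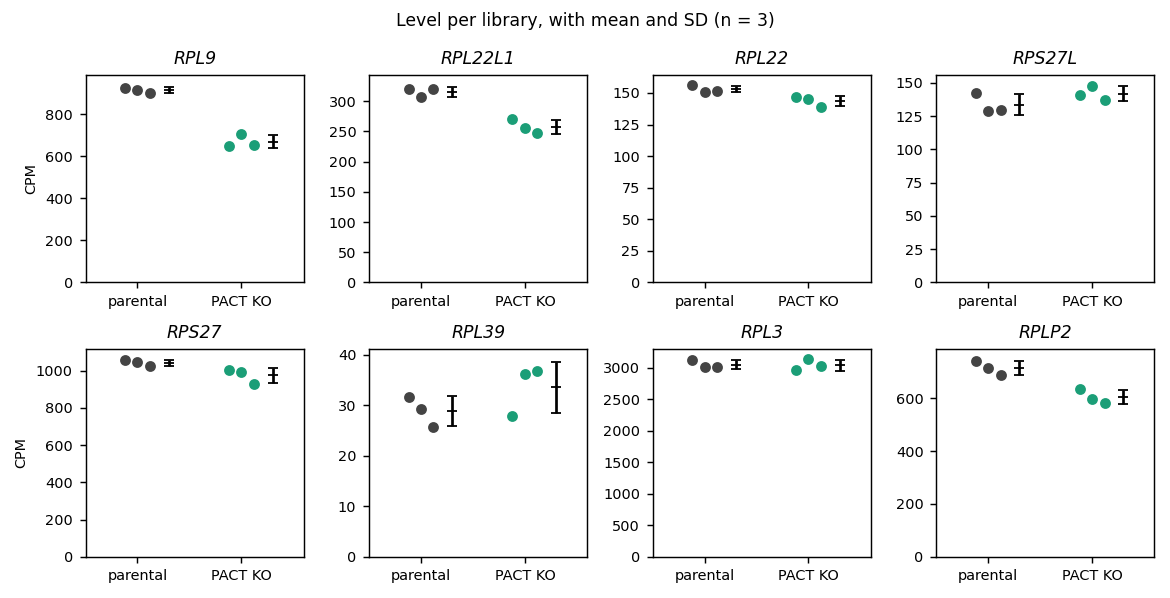
CPM per library (y axis, from 0) of 8 ribosomal protein genes, with dots for LNCaP parental (dark) and PACT KO (green) libraries and a bar for mean and SD (n = 3). *RPL9*, *RPL22L1* and *RPLP2* are separated between groups, whereas *RPL39*, *RPL3* and *RPS27L* overlap.

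*RPL17* and *RPSA2*, also among the 8 lowest members, had few reads. *RPL17*, which lines the exit tunnel of the growing peptide, had 250, 238 and 250 reads in LNCaP parental and 245, 183 and 151 in PACT KO cells (-0.36 ± 0.10, FDR 0.00394). DESeq2 did not call it (adjusted p 0.0170), nor did edgeR in 4 of the 6 fits that left out a library, namely LNCaP parental replicate 1 or 2 or PACT KO replicate 2 or 3 (FDR 0.0182 to 0.0276). *RPSA2*, a near copy of *RPSA* formerly listed as its pseudogene, had 452 to 536 reads in the LNCaP parental and 338 to 445 in the PACT KO dishes (-0.35 ± 0.08, FDR 1.86e-04). *RPSA* itself, the laminin receptor protein of the small subunit, fell by 0.17 on the log2 scale, and reads that match both genes could be counted to either.

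*RPL17*, *RPS10* and *RPL36A* were far lower than other members, with 151 to 250, 62 to 95 and 164 to 215 reads per library. Per kb of coding sequence their LNCaP parental levels were 19.4, 7.73 and 25.1 CPM, whereas 79 other members ranged from 84.5 to 6358 CPM per kb with a median of 1935. Each of the 3 genes lies whole (100%) inside an annotated readthrough gene, *RPL17-C18orf32*, *RPS10-NUDT3* and *RPL36A-HNRNPH2*, and all 3 readthrough genes had 0 reads in all 6 libraries. The part of this overlap in the low counts was not tested, and the values of these 3 genes are uncertain. *RPL10L*, an intronless copy of *RPL10* known from testis, stood at 5.88 CPM per kb, and reads that match both could be counted to either. Without these 4 genes and *RPSA2*, 54 of 79 members were lower and the median stayed at -0.11.

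All 4 stalk genes (*RPLP0*, *RPLP1*, *RPLP2* and *RPL12*) were called lower, with a median log2 fold change of -0.14, where 66.7% of all members were. *RPLP0*, which anchors the stalk, had 2931, 2880 and 2809 CPM in LNCaP parental and 2577, 2721 and 2668 CPM in PACT KO cells (-0.11, FDR 4.01e-04). *RPLP1* changed by -0.12 (FDR 5.94e-04), again with separate groups. *RPL5* and *RPL11*, which carry the 5S rRNA into the large subunit, fell by 0.10 (FDR 0.00289) and 0.11 (FDR 8.84e-04) on the log2 scale. *RPL5* had 906, 878 and 887 CPM in LNCaP parental and 820, 862 and 816 CPM in PACT KO cells. The gap between groups was thus narrow, and *RPL5* missed the threshold in all but 1 of the 6 fits that left out a library (FDR 0.0110 to 0.0431).

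Among small subunit genes at the mRNA entry and decoding sites (*RPS2*, *RPS3*, *RPS15* and *RPS23*), 4 of 4 were lower, with a median log2 fold change of -0.15. Of all members 66.7% were lower, and of all genes tested 18.8%. *RPS6*, the substrate of the S6 kinases, had 2188, 2111 and 2096 CPM in LNCaP parental and 2031, 1966 and 1920 CPM in PACT KO cells (-0.11, FDR 5.60e-04). *RPS27A*, which is made as a fusion with ubiquitin, changed by -0.09 (FDR 0.00423), at 619 to 633 CPM in the LNCaP parental and 578 to 598 CPM in the PACT KO dishes. It lost the call in all but 1 of the 6 fits that left out a library (FDR 0.0102 to 0.0534). Without LNCaP parental replicate 1, *RPLP0*, *RPLP1*, *RPL11* and *RPS6* also missed the threshold (FDR 0.0172 to 0.0277), as 1 or more of them did without LNCaP parental replicate 2 or PACT KO replicate 3 (FDR 0.0104 to 0.0218). These 4 genes, *RPL5* and *RPS27A* were not called under cyclic loess either, with log2 fold changes of -0.05 to -0.03 (FDR 0.0700 to 0.296). *RPL5* and *RPS27A* also missed the threshold with library totals and with upper quartile scaling (FDR 0.0231 to 0.0383). At the tunnel wall (*RPL4*, *RPL17* and *RPL39*) 2 of 3 genes were called, and around the tunnel exit 4 of 5, all lower, where 66.7% of all members were.

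The members that were not called include some of the most abundant. *RPL3*, next to the peptidyl transferase centre, had 3122, 3013 and 3004 CPM in LNCaP parental and 2959, 3131 and 3026 CPM in PACT KO cells, with overlapping groups and a log2 fold change of -0.0037 ± 0.03. *RPL10*, which joins the large subunit last, had 1079, 1091 and 1030 CPM against 1010, 1096 and 1056 CPM (-0.02 ± 0.03). *RPL7* was the only well-covered member above all LNCaP parental libraries, at 1287, 1335 and 1285 CPM against 1263, 1257 and 1253 CPM (0.05 ± 0.03, FDR 0.0993). It was called higher under library totals alone (0.08) and under cyclic loess (0.12).

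*RPL39*, a short protein of the tunnel wall, had 717, 630 and 636 reads in LNCaP parental and 686, 879 and 742 in PACT KO cells, or 31.6, 29.1 and 25.7 CPM against 27.8, 36.1 and 36.7 CPM. PACT KO replicate 1 fell among the LNCaP parental libraries, and the log2 fold change of 0.22 ± 0.07 was not called (FDR 0.0146). Without that library it was 0.35 (FDR 2.98e-06). It was also called without LNCaP parental replicate 1 (0.29, FDR 0.00895), with no filter on low counts (FDR 4.95e-04), and with library totals or upper quartile scaling. The LNCaP parental level of *RPL39* was 188 CPM per kb of coding sequence, low beside the median of 1935 over 79 members. RefSeq lists 40 pseudogenes of *RPL39*, and whether reads were lost to such copies was not tested. *RPL10L*, with 73 to 100 reads in the LNCaP parental and 93 to 118 in the PACT KO dishes, changed by 0.28 ± 0.12 (FDR 0.0678).

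The 8 paralogues whose names end in L did not follow one direction. *RPL22L1* and *RPL7L1* were lower, and *RPS27L*, *RPL10L*, *RPL26L1* and *RPL36AL* were not called, while *RPL3L* and *RPL39L* were at or near 0 reads. Reads of a paralogue over reads of its partner in the same library do not depend on a scaling of whole libraries. The ratio of *RPL22L1* to *RPL22* reads was 2.06, 2.03 and 2.11 in LNCaP parental and 1.84, 1.76 and 1.78 in PACT KO cells, a log2 difference of -0.20. *RPL22* itself was at 156, 151 and 152 CPM against 147, 145 and 139 CPM (-0.09 ± 0.03, FDR 0.0147, not called). The 2 groups of ratios lay apart by more than the spread within either.

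*RPS27L* had 143, 129 and 129 CPM in LNCaP parental and 141, 148 and 137 CPM in PACT KO cells (0.09 ± 0.03, FDR 0.0356). Its partner *RPS27* had 1054, 1046 and 1024 CPM against 1001, 992 and 928 CPM (-0.10 ± 0.03, FDR 0.00370). The call of *RPS27* was lost without PACT KO replicate 3 (FDR 0.123) and without each LNCaP parental replicate in turn (FDR 0.0122 to 0.0341), and also with library totals (-0.07, FDR 0.0273), upper quartile scaling (-0.07, FDR 0.0280) and cyclic loess (-0.03, FDR 0.312). *RPS27L* was called higher without LNCaP parental replicate 1 (0.14, FDR 0.00216) and without PACT KO replicate 3 (0.12, FDR 0.00881). The *RPS27L* to *RPS27* read ratio was 0.135, 0.123 and 0.126 in LNCaP parental and 0.141, 0.149 and 0.148 in PACT KO cells, a log2 difference of 0.19 with groups that did not overlap.

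*RPL7L1*, a nucleolar relative of *RPL7*, fell from 249, 240 and 248 CPM to 227, 232 and 216 CPM (-0.13 ± 0.03, FDR 3.66e-04), but was not called without PACT KO replicate 3 (FDR 0.0126) or under cyclic loess (-0.08, FDR 0.0126). Its ratio to *RPL7* reads went from 0.197, 0.191 and 0.198 to 0.176, 0.174 and 0.168, a log2 difference of -0.18. *RPL10L* over *RPL10* differed by 0.30 with separate groups. *RPL26L1* over *RPL26* (0.05) and *RPL36AL* over *RPL36A* (-0.01) overlapped. *RPL26* fell by 0.14 on the log2 scale, *RPL26L1* changed by -0.09 ± 0.05, *RPL36AL* by -0.02 ± 0.03 and *RPL36A* by -0.01 ± 0.10. Over the 6 pairs, the 2-sided exact permutation test gave p = 0.10 for the 4 separated pairs, the smallest value that 3 against 3 dishes allow (0.15 after Benjamini-Hochberg adjustment), and p = 0.70 and p = 0.90 for the others.

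Medians were close with and without a TOP start, and the difference was not tested. Of 69 members with a promoter entry, 47 (68.1%) had a C at the annotated start followed by at least 4 pyrimidines, 29 of 43 of the large and 18 of 26 of the small subunit, against 6.24% of 15843 protein-coding genes. This counts the sense strand at the start itself. Within 10 bases of it on either side, 60 of the 69 members (87%) had such a run, against 41.1% of protein-coding genes. Some members counted below as without the motif thus had one close by, and the split does not separate TOP from other mRNAs. Members with the motif were lower in 32 of 47 cases, with a median log2 fold change of -0.12, and members without it in 14 of 22, with a median of -0.10. *RPLP2*, *RPS21* and *RPL21*, printed above with 13, 12 and 6 pyrimidines, were among the largest falls, as was *RPL9* with none at its annotated start, and *RPL39*, with 19, was not called. Other genes with such a start were lower in 165 and higher in 131 of 763 cases, 21.6% and 17.2%, with a median of -0.0038. Those of at least 100 CPM were lower in 71 of 190 cases (37.4%) and higher in 17.9%, with a median of -0.05, close to the 36.7%, 18.4% and -0.04 of other genes at that level. The annotated start may not be the start used in these cells, which was not tested.

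Ribosomal proteins with other names went the same way, and genes that build ribosomes had a lower median than the members. *FAU*, which encodes RPS30 as a fusion, and *RACK1*, a signalling scaffold on the small subunit, were both called lower, with log2 fold changes of -0.18 and -0.11. Of 106 ribosome biogenesis genes, 75 (70.8%) were lower and 3 higher, with a median of -0.19, against 18.8% and 15.3% of all genes tested. *NOLC1*, a nucleolar chaperone of snoRNPs, fell from 321 ± 0.368 to 245 ± 2.30 CPM (-0.39, FDR 2.81e-15), *NOC2L* by 0.31 and *NCL* (nucleolin) by 0.28 on the log2 scale. *KRR1*, a factor of small subunit assembly, rose from 82.6 ± 2.31 to 112 ± 1.73 CPM (0.44, FDR 8.68e-14).

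Of 14 genes of RNA polymerase I and its factors, which transcribe rRNA, 7 (50%) were lower and 0 higher, with a median of -0.14. Of all genes tested 18.8% were lower and 15.3% higher. The 4 with the smallest p were *RRN3* (-0.26), *POLR1A* (-0.22), *POLR1C* (-0.24) and *POLR1B* (-0.18). Of 6 chaperones dedicated to single ribosomal proteins, *GRWD1*, which escorts RPL3, fell by 0.28 and *PDCD2L* by 0.26 on the log2 scale. *HEATR3* (-0.18), *BCCIP* (-0.09), *PDCD2* (-0.06) and *TSR2* (-0.04) were not called.

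Among 18 TOP RNAs outside the ribosome, 9 (50%) were lower and 1 higher, with a median of -0.08. The list was made by gene name, not by start sequence, and includes the non-coding *GAS5*. Of all genes 18.8% were lower, and of the genes outside the members 36.7% at 100 CPM or more and 45.2% at 500 CPM or more, so the share of these abundant RNAs was near that of genes of like level. *HNRNPA1* fell by 0.21, *NPM1* (nucleophosmin) by 0.16 and the elongation factor subunit *EEF1D* by 0.15 on the log2 scale, whereas *NAP1L1*, a histone chaperone, rose by 0.16. Of 16 genes that control ribosomal protein mRNAs, 7 (43.8%) were lower and 0 higher, with a median of -0.09, against 18.8% lower over all genes and 36.7% over other genes of at least 100 CPM. Several of the 16 were under 100 CPM, so the 36.7% is not a share for genes of like level. *MYC*, a transcription factor of ribosome genes, fell from 204 ± 2.39 to 165 ± 5.71 CPM (-0.31, FDR 3.93e-11). *RPS6KB2*, an S6 kinase, fell by 0.26, *AKT1* by 0.21 and *EIF4EBP1*, an mTOR target that restrains translation initiation, by 0.18 on the log2 scale. A separate list held 4 genes of the 5S rRNA complex and p53. From that list, *CDKN1A*, an inhibitor of the cell cycle, rose from 142 ± 5.12 to 153 ± 3.62 CPM (0.11, FDR 0.00309). *MDM2* (0.06) and its relative *MDM4* (0.04), of the same list, were not called.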

How the data were processed

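PolyA RNA of 3 LNCaP parental and 3 PACT KO dishes was sequenced. The authors deposited raw read counts per NCBI Gene number, not normalized. The submitters' processing notes name bcl2fastq 2.20.0.422, STAR 2.5.3a, StringTie 1.3.3, featureCounts 1.5.3 and hg38. The annotation and the handling of strand and of multi-mapped reads are not given in the sources used here, and either could move reads among members, pseudogenes and readthrough genes. The row without a gene number (0.0688% to 0.0708% of reads) was left out, and 27540 genes were named from RefSeq (GRCh38.p14).

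Genes were kept by filterByExpr, scaled by TMM and tested 2-sided by edgeR 4.0.16 (glmQLFit, glmQLFTest, R 4.3.3) on all 14462 genes, with Benjamini-Hochberg adjustment (FDR) and calls at 0.01. The common dispersion was 8.41e-04. The test was tried on simulated data of this comparison (14335 genes), where it recovered 194 of 200 changed genes with 1 false call. Its recovery of changes as small as those of most members was not tested. CPM use the TMM factors. P-values measure the spread between dishes. Coding lengths and snoRNA positions came from GENCODE 29. Alternatives used DESeq2 1.42.0, limma 3.58.1, other scalings, filters and thresholds, a replicate block, pseudogene reads added to their parent, and each library left out. Restricting the members by level or by certainty of reads was chosen after seeing the data.

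The members and lists were chosen with earlier results of these data known. Named were *PRKRA*, the 8 lowest members called (none was called higher), the L paralogues with their partners, stalk and 5S genes, *RPS6*, *RPS27A*, and at most 4 genes of each other list by smallest p, or all of a list of 6 or fewer. Results of a few of these genes are not reported here. Other genes were named after their values were seen.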

Additional observations from a re-analysis of the deposited data

How the results depend on the processing

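The count of 56 lower members stayed between 39 and 59 with each library left out, and the count of higher members between 0 and 2. Of all genes, 15.7% to 17.8% were then lower and 12.1% to 14.2% higher. The median log2 fold change then ranged from -0.13 to -0.09, the large minus small subunit difference from 0.0158 to 0.0492, and the difference in read share from -0.512 to -0.392 percentage points. With library totals alone, 44 members were lower and 3 higher (*RPL7*, *RPL39* and *RPS27L*), with a median of -0.0825, and with upper quartile scaling 44 and 2. Under these 2 scalings 15.8% and 16.2% of all genes were lower and 18.9% and 18.3% higher, with medians of 0.0297 and 0.0245. The median of the members minus that of all genes was -0.1122 and -0.1125, against -0.1125 in the main fit. Under cyclic loess, 33 members were lower and 7 higher (among them *RPL3*, *RPL7*, *RPL7A*, *RPL23*, *RPS4X* and *RPS27L*), with a median of -0.0517. Of all genes 16.9% were lower and 16.3% higher there, and the median of the members minus that of all genes was -0.0549. The cause of these shifts was not tested. At an FDR under 0.05, 2 members were higher in the main fit, *RPL39* (FDR 0.0146) and *RPS27L* (FDR 0.0356). The share of all genes at that threshold is not given here. No member reached 1.5-fold, so glmTreat against 1.5-fold could call none, and it called 0 lower. Restricted to members of at least 100 CPM, chosen after seeing the data, the subunit difference was 0.0208.

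The log2 fold changes that turned sign were of members near 0. *RPL3* was at 0.0259 with library totals, 0.0203 with upper quartile scaling, 0.0805 under cyclic loess, 0.0001 without a filter and 0.0025 with one of 0.5 CPM, and ranged from -0.0259 to 0.0196 with each library left out. *RPL10* was at 0.0127, 0.0072 and 0.0541 under the same 3 scalings and ranged from -0.0465 to 0.018 with each library left out. *RPL36AL* was at 0.0116, 0.0062 and 0.0289 under them. *RPL36A* was at 0.018 and 0.0126 with library totals and upper quartile scaling, and ranged from -0.0886 to 0.0589 with each library left out.

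Dishes of the same number did not deviate together (correlations of -0.08, -0.02 and 0.03), and not every dish correlated best with its own number. With the replicate block, 56 members were lower and 0 higher, with a median of -0.11 and a subunit difference of 0.03. Members with under 100 reads per library, such as *RPS10* (SE 0.13), could not show changes of the size seen here.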

Other observations

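The members lie on many chromosomes, and those with at least 3 members tested differed in how many were lower. Each holds few members, of which 66.7% were lower over all chromosomes, against 18.8% of all genes tested. On chromosome 11, 5 of 5 were lower, with a median log2 fold change of -0.17, on chromosome 16 3 of 3 (-0.18), and on chromosome 19, which holds the most members, 11 of 13 (-0.15). On chromosome X, 0 of 4 were called (*RPL10*, *RPL36A*, *RPL39* and *RPS4X*), with a median of 0.0016. Of the 4 members on chromosome 8, 2 were lower (-0.07). The other chromosomes with at least 3 members tested ranged from 33.3% lower (chromosomes 4 and 14) to 80% (chromosome 1). These groups were formed after the values were known and carry no test.

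Introns of ribosomal protein genes often hold snoRNAs, which guide the modification of rRNA. In GENCODE 29, 28 members held 60 snoRNA genes. Of these 28 hosts, 19 were lower (67.9%), with a median log2 fold change of -0.14, and of the 56 other members tested 37 (66.1%), with a median of -0.11. Of all genes tested 18.8% were lower. Reads on named pseudogenes made up 0.0669% to 0.0728% of the reads of members in each library, on 24 of 38 pseudogene rows, whereas RefSeq lists 1988 named pseudogenes of these members. Adding them to their parent genes left the counts at 56 lower and 0 higher.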
